A study of Homo sapiens with 6 samples.

Results

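The transcript levels of 9 genes around p53 were described in Ewing sarcoma cells treated with THZ1, which binds cyclin-dependent kinase 7 (CDK7) covalently and inhibits it. The genes were taken by symbol from a table of 27420 genes. MDM2, MDM4 and PPM1D restrain p53, and CDKN1A, GADD45A, GADD45B, BTG2, SESN1 and PLK2 are target or stress-response genes. The transcript of the p53 gene itself was not analysed here. Whole-transcriptome sequencing (RNA-Seq) had been performed on 6 libraries from A673 and SKNMC, which are established human Ewing sarcoma cell lines. In each line 1 library came from cells given DMSO, the vehicle, 1 from cells given low-dose THZ1 (50 nM) and 1 from cells given high-dose THZ1 (200 nM), all for 6 h. The comparison asks which transcripts are lost when CDK7-dependent transcription is inhibited in part or more fully. There were no replicates, so no difference below carries a test or an error, and both doses of a line were compared with the same DMSO library. Each line stands for 1 tumour, and both lines are described as lacking functional p53.

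p53 is a transcription factor that stress signals stabilise. It switches on genes that halt the cell cycle, repair DNA or trigger death, and it also switches on MDM2, whose protein marks p53 for destruction, so the pathway closes a feedback loop. Many transcripts of the pathway are short-lived, which makes their level follow transcription closely when RNA polymerase II is inhibited, since CDK7 phosphorylates the tail of that polymerase. BTG2, GADD45A, GADD45B, CDKN1A and PLK2 also respond to growth factors and stress kinases by routes that do not need p53.

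The DNA element that p53 binds is a pair of palindromic decamers, each with a C and a G at fixed core positions. Only the form with no spacer between the decamers was searched. Stretches of 20 bases with all 4 core bases and at most 2 mismatches to this consensus were searched within 2500 bp of each gene start on hg19, on both strands (the consensus is its own reverse complement). Such a match was found at 6 of the 9 genes, against 432 of 11987 protein-coding genes above 1 FPKM in either DMSO library (3.60%) and 11 of 31 other p53 target genes (35.5%). The matches are shown because they separate the 6 genes with a candidate p53 sequence near the listed start from MDM4, PPM1D and SESN1, for which the closest stretches had 4, 3 and 5 mismatches. Each is written 5′ to 3′ on the strand of its gene, with the core bases in capitals.
PLK2: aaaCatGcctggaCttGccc
GADD45A: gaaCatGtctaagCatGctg
CDKN1A: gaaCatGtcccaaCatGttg
BTG2: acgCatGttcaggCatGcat
MDM2: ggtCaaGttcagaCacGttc
GADD45B: agaCttGgttgaaCttGgtt

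The PLK2 stretch has 0 mismatches and lies 2033 bp upstream of the start, on the minus strand at chr5:57758101-57758120. The GADD45A stretch has 1 mismatch and lies 1714 bp downstream of the start, in an intron, on the plus strand at chr1:68152458-68152477. The other 4 have 2 mismatches each and are all on the plus strand. That of CDKN1A lies 79 bp upstream of the outermost listed start (chr6:36644226-36644245), that of BTG2 lies 1849 bp upstream (chr1:203272770-203272789), and that of MDM2 lies 747 bp downstream, in an intron (chr12:69202703-69202722), where the inner promoter of MDM2 is known to be. That of GADD45B lies 1899 bp downstream, in the 3′ UTR (chr19:2478019-2478038). A match of letters is a description and no evidence of binding. The absence of one in this window says nothing of binding elsewhere or of elements with a spacer.

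The values are FPKM, fragments per kilobase of transcript relative to the total of the library, which are divided by transcript length and so can be set side by side between genes. A log2 fold change here is the log2 ratio of FPKM with 1 added to each value, which understates changes of low genes. A gene is called active in a line when its DMSO value is above 1 FPKM (11077 genes in A673 and 11896 in SKNMC), and called lower or higher when the log2 ratio reaches 2-fold. Column sums of the THZ1 libraries were 97.8% to 100.5% of DMSO, 8776 to 10182 genes were listed at 0 in a library, and none of the 9 genes was at 0 in any. Read depth is unknown, so no interval for counting error was possible. All 6 Ewing sarcoma markers (CD99, NKX2-2, NR0B1, STEAP1, CCND1 and FLI1) were above 1 FPKM in all 6 libraries. Of 7 markers of other cell types, 4 to 5 were at 0 in each library, and their sum was 0.0430 to 0.108 FPKM in A673 and 8.34 to 14.0 FPKM in SKNMC. Nearly all of the SKNMC sum was PTPRC, a leukocyte phosphatase, at 10.2, 7.90 and 13.1 FPKM in the DMSO, low-dose and high-dose libraries. The defining T-cell, basal and muscle markers CD3E, KRT5 and MYOG were at 0 in all libraries. The part of PTPRC-expressing cells in the SKNMC values was not tested. The direction of small changes depends on how libraries are scaled to each other. Scaling to the 75th percentile of active genes moved the median log2 fold change of all active genes by 0.22 to 0.48, and scaling to the median of 77 ribosomal protein genes moved it by -0.39 to -0.21. A direction of the 9 genes that turned under either scaling is given beside its value.

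With DMSO the genes spanned a wide range of levels. In A673 the order from the top was GADD45B at 43.0 FPKM, GADD45A at 28.0, MDM2 at 18.7, CDKN1A at 11.5, PPM1D at 7.17, MDM4 at 4.25, BTG2 at 3.92, SESN1 at 1.82 and PLK2 at 1.28. In SKNMC the order was MDM2 at 20.5 FPKM, GADD45A at 14.2, BTG2 at 13.7, PPM1D at 9.68, SESN1 at 7.86, MDM4 at 6.20, CDKN1A at 5.16, GADD45B at 4.04 and PLK2 at 0.125. GADD45B headed the list in A673 and was next to last in SKNMC, whereas MDM2, the main brake on p53, stood at nearly the same level in both lines. With 1 library per condition, whether neighbours in either order differ cannot be said.

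**Figure D1:**
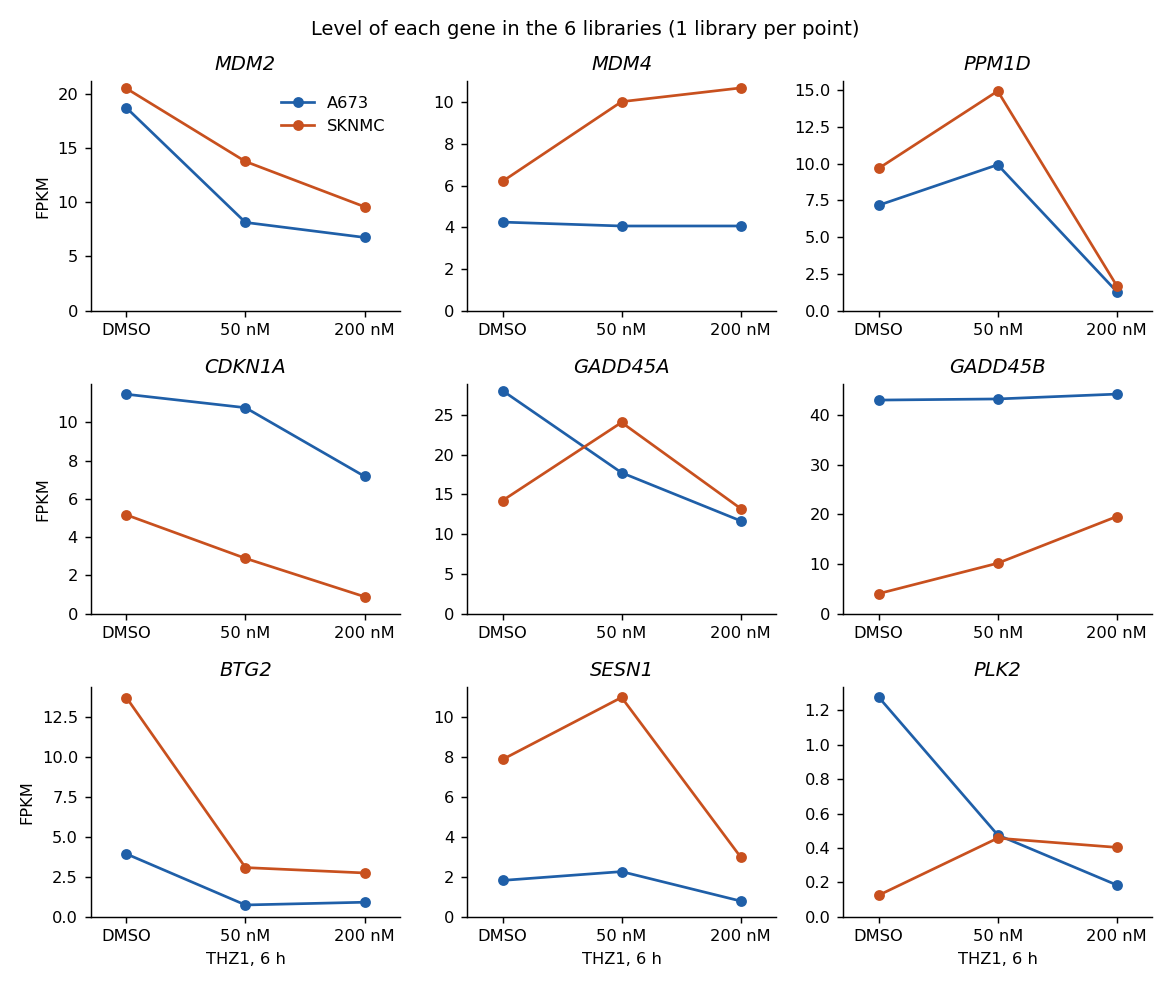
Level of each gene in FPKM (y axis, starting at 0) with DMSO, 50 nM and 200 nM THZ1 (x axis) in A673 and SKNMC, with 1 library per point. MDM2 and BTG2 are lower at both doses in both lines, PPM1D and SESN1 peak at 50 nM and drop below DMSO at 200 nM, and GADD45B stays between 43.0 and 44.2 FPKM in A673 while it climbs from 4.04 to 19.6 FPKM in SKNMC.

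The genes that restrain p53 showed 3 different courses. MDM2 (chr12:69201956-69239214, plus strand), the ubiquitin ligase of p53, was at 18.7 FPKM with DMSO, 8.14 at low dose and 6.76 at high dose in A673. The SKNMC levels were 20.5, 13.8 and 9.59 FPKM. MDM2 was thus lower with each step of dose in both lines, and most of the difference in A673 was already present at low dose. These are log2 fold changes of -1.11 and -1.35 in A673 and of -0.54 and -1.02 in SKNMC, so 36.1% and 46.8% of the DMSO level remained at high dose. In bulk RNA, fewer cells with a transcript and less of it per cell cannot be told apart. The last 3238 bp of MDM2 overlap CPM on the other strand, whose own values were 0.568 to 1.17 FPKM, and whether the quantification used strand is not stated.

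MDM4 (chr1:204485511-204542871, plus strand), a relative of MDM2 that blocks the activity of p53, did not follow it. It was at 4.25 FPKM with DMSO, 4.06 at low dose and 4.06 at high dose in A673, log2 fold changes of -0.05 at both doses that became 0.16 and 0.26 when scaled to the 75th percentile. The corresponding SKNMC levels were 6.20, 10.0 and 10.7 FPKM, with log2 fold changes of 0.61 and 0.70. Those became 0.28 and 0.16 when scaled to ribosomal protein genes, and 0.89 and 1.24 when scaled to the 75th percentile. MDM4 was near its DMSO level in A673 and above it in both treated libraries of SKNMC, where 97.9% of active genes had a lower change at 50 nM and 98.3% at 200 nM. MDM4 and MDM2 stood at a ratio of levels below 1 in A673 at every dose, and in SKNMC the high-dose library held more MDM4 than MDM2.

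PPM1D (chr17:58677544-58741849, plus strand), a phosphatase that switches off p53 and the kinases above it, turned with the dose. It was at 7.17 FPKM with DMSO, 9.93 at low dose and 1.30 at high dose in A673. SKNMC held 9.68, 14.9 and 1.70 FPKM. The low-dose library was the highest of its line and the high-dose library the lowest, in both lines. Against DMSO the A673 log2 fold changes were 0.42 and -1.83, and those of SKNMC 0.58 and -1.99. From 50 nM to 200 nM the FPKM level was 7.66-fold lower in A673 and 8.81-fold lower in SKNMC, and only 0.0722% and 0.0168% of active genes had a lower value for this step. PPM1D kept both directions under each of the 3 scalings.

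Among the genes of growth arrest, BTG2 (chr1:203274619-203278730, plus strand), an antiproliferative gene whose product promotes deadenylation of messenger RNA, was the most reduced at low dose. It was at 3.92 FPKM with DMSO, 0.738 at low dose and 0.909 at high dose in A673. SKNMC gave 13.7, 3.07 and 2.74 FPKM. Both treated libraries of each line sat far below DMSO and close to each other, so the higher dose brought little further difference. On the log2 scale the differences were -1.50 and -1.37 in A673 and -1.85 and -1.97 in SKNMC, and 5.58% and 1.97% of active genes had a lower value at 50 nM. The step from 50 nM to 200 nM was 0.14 in A673 and -0.12 in SKNMC, the latter 0.09 when scaled to the 75th percentile.

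CDKN1A (chr6:36644305-36655116, plus strand) encodes p21, the inhibitor of cyclin-dependent kinases through which p53 halts the cycle. It was at 11.5 FPKM with DMSO, 10.8 at low dose and 7.18 at high dose in A673. The SKNMC libraries held 5.16, 2.89 and 0.889 FPKM. The levels lay in the same order of dose in both lines, with the high-dose SKNMC library down to 17.2% of DMSO and the high-dose A673 library at 62.6%. Its log2 fold change was -0.61 at 200 nM in A673, and those of SKNMC were -0.66 and -1.71. At 50 nM in A673 the value was -0.08, which became 0.15 when scaled to the 75th percentile.

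The GADD45 genes encode small stress proteins that bind the clamp of the replication fork and activate a stress kinase pathway, and they moved differently in the lines. GADD45A (chr1:68150744-68154021, plus strand) was at 28.0 FPKM with DMSO, 17.7 at low dose and 11.7 at high dose in A673. In SKNMC the levels were 14.2, 24.0 and 13.2 FPKM. A673 thus showed a stepwise lower level, while in SKNMC the low-dose library alone stood apart, above DMSO. Log2 fold changes were -0.63 and -1.20 in A673 and 0.72 at 50 nM in SKNMC, whereas -0.10 at 200 nM in SKNMC became 0.44 when scaled to the 75th percentile. At 50 nM, 98.7% of active SKNMC genes had a lower change than GADD45A.

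GADD45B (chr19:2476120-2478257, plus strand) was, of the 9, the gene whose log2 fold changes at 200 nM lay farthest apart in the lines with the pseudocount of 1 FPKM. With 0.1 FPKM, PLK2 lay farther apart, at -2.27 in A673 and 1.16 in SKNMC, against 0.04 and 2.25 for GADD45B. GADD45B was at 43.0 FPKM with DMSO, 43.3 at low dose and 44.2 at high dose in A673. SKNMC started from 4.04 FPKM and held 10.2 at low dose and 19.6 at high dose. The A673 libraries hardly differed, and the SKNMC libraries were ordered by dose from a low DMSO level without reaching that of A673. The log2 fold changes in SKNMC were 1.15 and 2.03, and 99.7% and 99.9% of active genes had a lower value at 50 nM and 200 nM. Scaled to ribosomal protein genes, the SKNMC values were 0.78, short of 2-fold, and 1.40. In A673 they were 0.01 and 0.04, which became -0.24 and -0.36 when scaled to ribosomal protein genes. PTPRC, whose level stands above, was lowest in the low-dose and highest in the high-dose library of SKNMC. The part of PTPRC-expressing cells in the GADD45B values was not tested.

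SESN1 (chr6:109307640-109416022, minus strand), a sestrin that restrains growth signalling through mTORC1 under stress, had the same order of doses as PPM1D, with lower levels and smaller changes. It was at 1.82 FPKM with DMSO, 2.26 at low dose and 0.787 at high dose in A673. In SKNMC the libraries gave 7.86, 11.0 and 2.99 FPKM. In each line the low-dose library was again the highest and the high-dose library the lowest. In A673 the log2 fold changes were 0.21 and -0.66 and in SKNMC 0.43 and -1.15, with the same directions under each of the 3 scalings. The value at 50 nM in A673 was as small as 0.04 when scaled to ribosomal protein genes.

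PLK2 (chr5:57749809-57756087, minus strand), a polo-like kinase of the S-phase checkpoint, was the lowest of the 9 genes. It was at 1.28 FPKM with DMSO, 0.476 at low dose and 0.185 at high dose in A673, log2 fold changes of -0.63 and -0.94. The SKNMC libraries gave 0.125, 0.457 and 0.404 FPKM, which is below the level taken as active in all 3 libraries. The lines therefore started apart and lay close together at 50 nM. The pseudocount weighs heavily at such levels, and with 0.1 FPKM in place of 1 the A673 values were -1.26 and -2.27 and the SKNMC values 1.31 and 1.16, against 0.37 and 0.32 with 1.

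**Figure D2:**
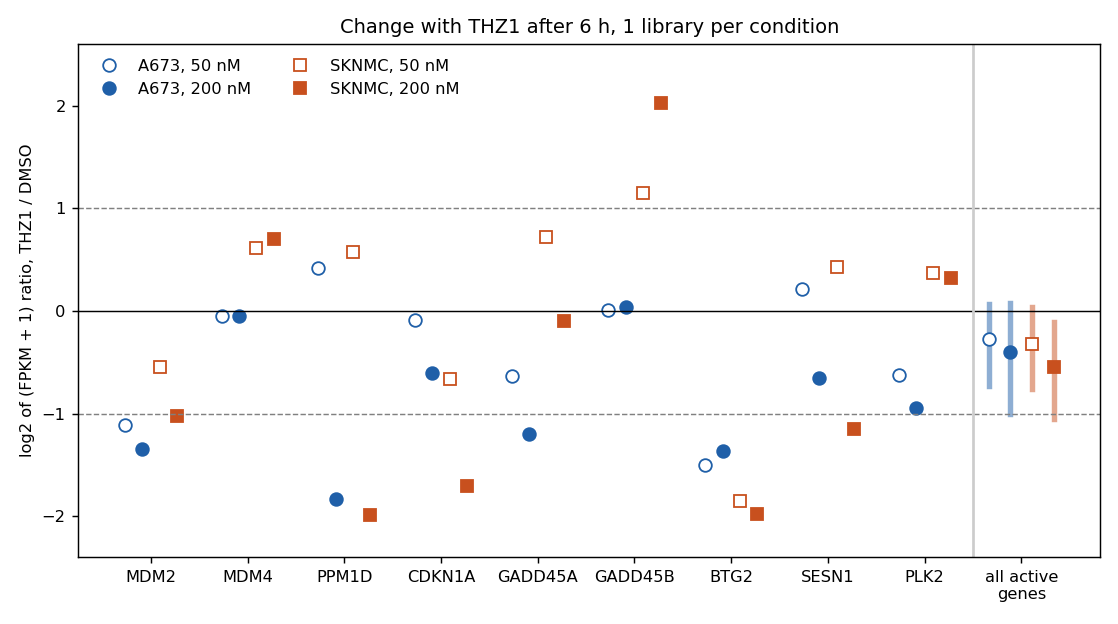
Log2 ratio of FPKM + 1 between each THZ1 library and the DMSO library of its line (y axis) for the 9 genes (x axis), with the median (marker) and quartiles (bar) of all active genes at the right and dashed lines at 2-fold. The 4 BTG2 values lie between -1.97 and -1.37, and GADD45B in SKNMC, at 1.15 and 2.03, is the sole gene above the upper dashed line.

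Read as a group against all active genes, the 9 genes were not uniformly reduced. At 50 nM in A673, 2 of 9 active genes were at least 2-fold lower (MDM2 and BTG2), against 15.9% of all active genes, and 0 were higher, against 0.343%. MDM2 was at -0.88 there, short of 2-fold, when scaled to the 75th percentile. Their median log2 fold change was -0.08, and that of all active genes was -0.27. At 200 nM in A673, 4 of 9 were lower (GADD45A, MDM2, PPM1D and BTG2), against 25.3%, and 0 were higher, against 0.126%. GADD45A was at -0.85, short of 2-fold, when scaled to the 75th percentile. With a pseudocount of 0.1 FPKM, 6 of 9 were lower, and the share of all active genes was not computed there. The medians were -0.94 for the 9 genes and -0.40 for all. In A673 the median of the 9 therefore lay above that of the transcriptome at low dose and below it at high dose.

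In SKNMC 8 of the 9 genes were active. At 50 nM, 1 of 8 was lower (BTG2), against 15.8% of active genes, and 1 was higher (GADD45B, but 0 when scaled to ribosomal protein genes), against 0.471%. The median of the 8 was 0.51, and that of all active genes was -0.32. At 200 nM, 5 of 8 were lower (MDM2, CDKN1A, PPM1D, BTG2 and SESN1), against 27.3%, and 1 was higher (GADD45B), against 0.462%. The medians were then -1.09 and -0.55. Of the 5, MDM2 was at -0.50 and SESN1 at -0.72 when scaled to the 75th percentile, short of 2-fold. With 8 or 9 genes these counts describe the genes named and nothing wider.

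The step from low to high dose was also compared within each line. In A673, 1 of 9 genes was at least 2-fold lower at 200 nM than at 50 nM (PPM1D), against 7.44% of active genes, and 0 were higher, against 0.117%. In SKNMC, 3 of 8 were lower (CDKN1A, PPM1D and SESN1), against 8.39%, and 0 were higher, against 0.37%. The SKNMC step of CDKN1A was -0.87 when scaled to ribosomal protein genes, short of 2-fold, and that of GADD45B was 1.17, past 2-fold, when scaled to the 75th percentile. The median step was -0.32 in A673 and -0.65 in SKNMC, where all active genes had medians of -0.02 and -0.14. Higher than DMSO at 50 nM and lower at 200 nM in both lines was the course of 2 of the 8 genes active in both (PPM1D and SESN1), and of 6.93% of the 10574 genes active in both. At least 2-fold below the low dose in both lines was 1 of the 8 (PPM1D), against 5.22%.

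**Figure D3:**
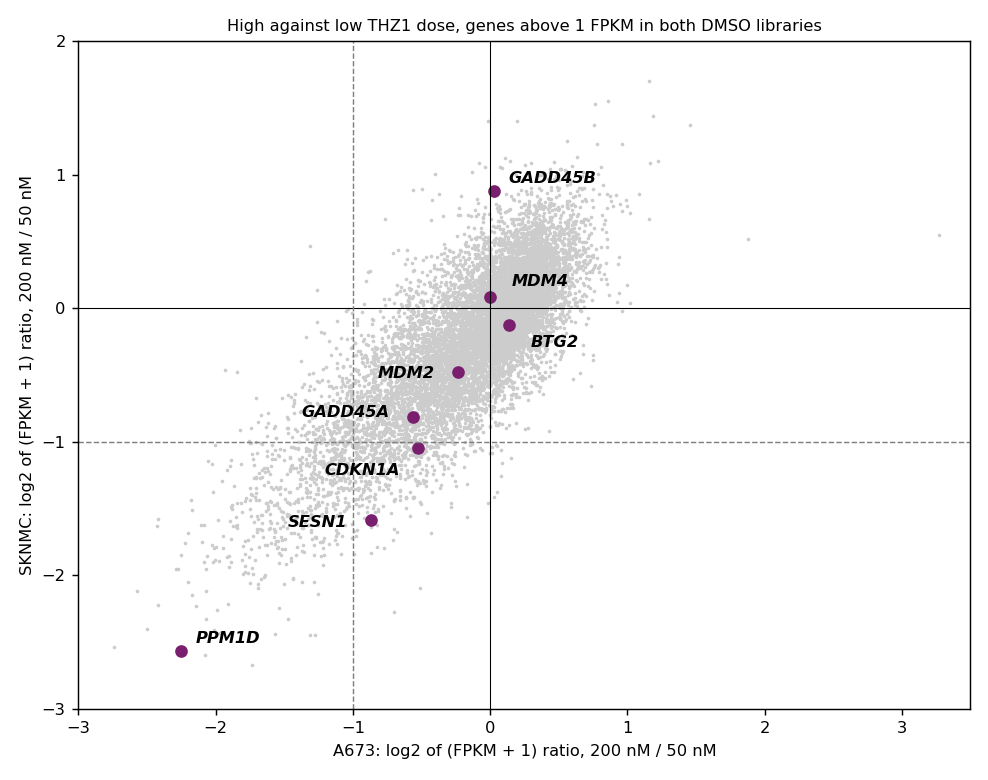
Log2 ratio of FPKM + 1 between 200 nM and 50 nM THZ1 in A673 (x axis) and SKNMC (y axis) for genes above 1 FPKM in both DMSO libraries (grey points), with 8 genes labelled and dashed lines at 2-fold lower. PPM1D lies at -2.25 and -2.56, near the lower left edge of the cloud, SESN1 at -0.87 and -1.58, and GADD45B at 0.03 in A673 (-0.12 when scaled to ribosomal protein genes) and 0.88 in SKNMC.

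The genes with this turn are long. PPM1D spans 64306 bp and SESN1 108383 bp on hg19, the greatest spans of the 9, and the median span of all genes with the same course was 66906 bp, against 31689 bp for all genes active in both lines. Across 5 bins of span, the median step from 50 nM to 200 nM in active genes went from 0.12 in the shortest to -0.19 in the longest bin in A673, and from 0.00 to -0.23 in SKNMC. Against DMSO, the medians of the shortest and longest bins in A673 were -0.38 and -0.10 at 50 nM, and -0.30 and -0.36 at 200 nM. In SKNMC they were -0.41 and -0.15 at 50 nM, and -0.45 and -0.43 at 200 nM. The bins thus differed more at the low dose than at the high dose. MDM4, of 57361 bp, lies in the same bin as PPM1D and had steps of 0.00 in A673 and 0.08 in SKNMC, both -0.12 when scaled to ribosomal protein genes (-0.02 in A673 with a common sum of the columns). PPM1D and MDM4 are thus of like length and differ by over 2 log2 units in this step. The shortest genes, GADD45B (2138 bp), GADD45A (3278 bp) and BTG2 (4112 bp), had steps on both sides of 0. The part of gene length in these values was not tested.

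**Figure D4:**
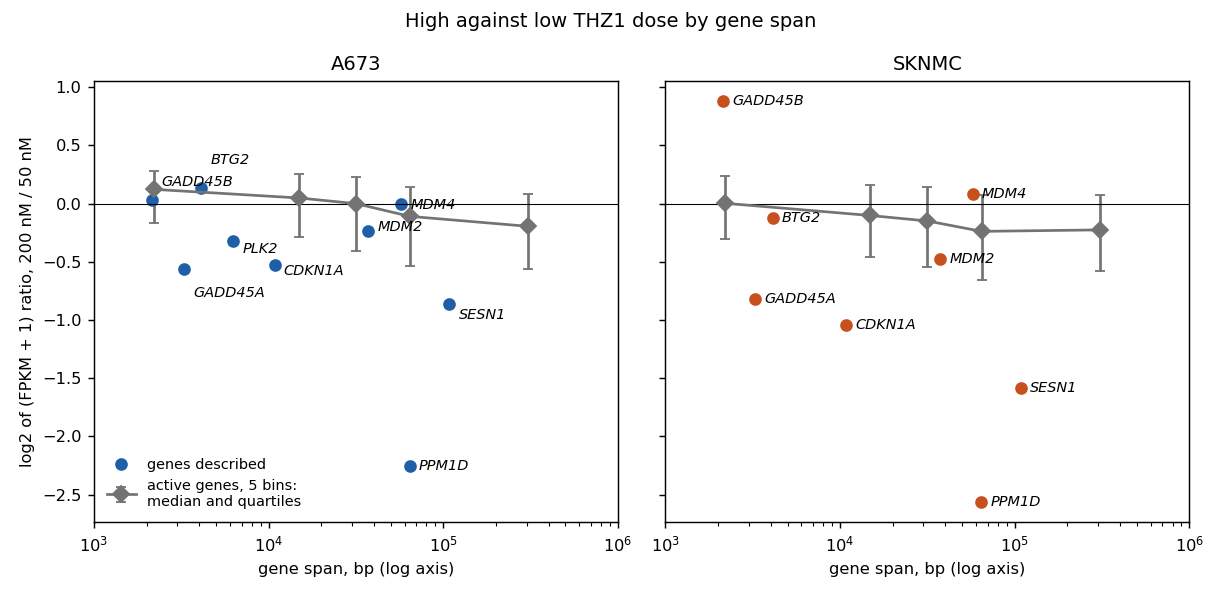
Log2 ratio of FPKM + 1 between 200 nM and 50 nM THZ1 (y axis) against gene span in bp (x axis, log scale) for the active genes of the 9 in A673 (left) and SKNMC (right), with medians and quartiles of all active genes in 5 bins of span. PPM1D lies far below the median of its bin in both lines, at -2.25 and -2.56.

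AUUUA words in the 3′ UTR are a feature of many short-lived messages, and the genes differed widely in them. In the canonical transcripts of GENCODE 44 on GRCh37, MDM2 had 23 AUUUA in 5695 bases, MDM4 had 19 in 8438, SESN1 had 9 in 3235 and PPM1D had 5 in 2728. CDKN1A had 3 in 1532 bases, BTG2 had 2 in 2164, PLK2 had 2 in 601, GADD45A had 2 in 560, and GADD45B had 0 in 656. The median of 11713 active genes was 2, or 1.78 per kilobase, and 7 of the 9 genes exceeded that density, BTG2 and GADD45B being the exceptions. The longer word UUAUUUA, which contains AUUUA, was present in 6 of the 9 and in 34.0% of active genes. MDM2, with the most AUUUA words, was lower at both doses in both lines. BTG2, with the median count of 2 and a density below the median, was the most reduced at low dose. MDM4, with many such words, was near or above its DMSO level. The part of AUUUA words in these values was not tested. Half-lives were not measured, and the label of these genes as labile rests on background knowledge.

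With DMSO the lines differed in 5 of the 9 genes by at least 2-fold on the log2 scale of FPKM + 1. GADD45B was 10.6-fold higher in A673, with a log2 difference of 3.13. CDKN1A and PLK2 were higher in A673 by 1.02 each, and both missed 2-fold when scaled to the 75th percentile, CDKN1A at 0.87. With a pseudocount of 0.1 FPKM, CDKN1A was higher by 1.14 and PLK2 by 2.61. PLK2 was only at 0.125 FPKM in SKNMC, where the pseudocount weighs heavily. BTG2 and SESN1 were lower in A673 by log2 differences of -1.58 and -1.65. Of 12399 genes active in either line, 15% were at least 2-fold lower in A673 and 8.42% higher, so 2 of 9 lower and 3 of 9 higher are the counts to set beside these shares. GADD45A was higher in A673 by 0.93 and MDM4 lower, at -0.46, values that became 1.43 and -0.01 when scaled to ribosomal protein genes. MDM2 (-0.12) and PPM1D (-0.39) turned to 0.38 and 0.09 when scaled to ribosomal protein genes.

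Other p53 target genes give the pathway around the 9. Of 36 listed, 27 were active in A673 and 30 in SKNMC. At least 2-fold lower were 5 in each line at low dose and 9 in each at high dose, with 0 higher in any THZ1 library. These counts stand beside the shares of all active genes given above, 15.9% and 25.3% in A673 and 15.8% and 27.3% in SKNMC. Their medians were -0.40 and -0.73 in A673 and -0.28 and -0.71 in SKNMC. At 200 nM, 14 were lower in A673 and 18 in SKNMC when scaled to ribosomal protein genes. Scaled to the 75th percentile, 8 and 6 were lower, with 1 then higher in SKNMC (PIDD). Shares of all active genes under these scalings were not computed. Scaled to ribosomal protein genes, the medians of all active genes at 200 nM were -0.72 in A673 and -0.94 in SKNMC. Scaled to the 75th percentile, they were -0.07 in each line. Of these targets the most reduced was PHLDA3, an inhibitor of AKT, with log2 fold changes of -2.75 and -2.41 in A673. PHLDA3 was at -2.50 and -2.86 in SKNMC. Its course was like that of BTG2, with little added by the higher dose. AEN, a nuclease of apoptosis, and RAP2B, a small GTPase, were next by the mean over the 4 THZ1 libraries. AEN was at -1.52 and -2.11 in A673 and -1.32 and -1.90 in SKNMC, and RAP2B at -1.59 and -2.17 and at -0.89 and -1.50. At the other end stood PIDD, a death-domain protein, at 0.08 and 0.48 in A673 and 0.19 and 0.75 in SKNMC, with -0.13 in each line at 50 nM when scaled to ribosomal protein genes and 1.31 at 200 nM in SKNMC when scaled to the 75th percentile. KITLG, the ligand of KIT, had the course of PPM1D in small, with 0.54 and -0.35 in A673 and 0.55 and -0.34 in SKNMC, the last of these 0.00 when scaled to the 75th percentile. FDXR, a mitochondrial reductase, was at 0.20 and 0.45 in A673 and at -0.16 and -0.33 in SKNMC, the latter pair 0.08 and 0.13 when scaled to the 75th percentile. Scaling to ribosomal protein genes put its A673 values at -0.01 and 0.11. The course of PPM1D and SESN1 was shared by 3 of 26 other targets active in both lines (PMAIP1, ZMAT3 and KITLG).

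Genes whose products act on p53 or on MDM proteins gave larger counts at high dose. All 20 were active in both lines, and 3 were at least 2-fold lower at 50 nM in A673 and 1 in SKNMC, and 11 in each line at 200 nM, with 0 higher. Of all active genes, 15.9% in A673 and 15.8% in SKNMC were lower at 50 nM, and 25.3% and 27.3% at 200 nM. When scaled to the 75th percentile, 6 were lower at 200 nM in A673 and 5 in SKNMC, where 2 were higher (RPL11 and ATM). When scaled to ribosomal protein genes, 13 and 14 were lower at 200 nM, and 6 at 50 nM in SKNMC. Shares of all active genes were not computed for either scaling. On the deposited scale the medians of the 20 genes were -0.30 and -1.08 in A673 and -0.17 and -1.04 in SKNMC. The acetyltransferase KAT5 was the most reduced by the mean, at -1.32 and -2.00 in A673 and -1.29 and -1.69 in SKNMC. The deacetylase SIRT1 was at -1.05 and -2.15 in A673 and at -0.93 and -1.84 in SKNMC, and the ubiquitin ligase RFWD2 at -0.61 and -1.24 and at -0.80 and -1.81. RPL11 and RPL5, ribosomal proteins that bind MDM2, had values from 0.24 to 0.58 in the THZ1 libraries, from -0.29 to 0.08 when scaled to ribosomal protein genes as a whole, and from 0.49 to 1.15 when scaled to the 75th percentile. The kinase ATM, which phosphorylates p53, was at -0.11 and 0.21 in A673 and at -0.21 and 0.56 in SKNMC, and its direction turned in 3 of these 4 values under one or other scaling.

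Paralogs of the 9 genes had the directions of their relative in some cases and not in others. Of 13 listed, 10 were active in A673 and 12 in SKNMC. In each line 2 were at least 2-fold lower at 50 nM and 5 at 200 nM. The shares of all active genes that were lower were 15.9% in A673 and 15.8% in SKNMC at 50 nM, and 25.3% and 27.3% at 200 nM. For the scalings that follow, no share of all active genes was computed. At 200 nM, 7 paralogs in A673 and 10 in SKNMC were lower when scaled to ribosomal protein genes. Scaled to the 75th percentile, 4 and 3 were lower, with 1 then higher in SKNMC. That gene was CDKN1C, a CDK inhibitor active in SKNMC alone and named after its values were seen, at 0.70 and 0.72 there on the deposited scale. The medians were -0.37 and -1.13 in A673 and -0.03 and -0.89 in SKNMC. The polo-like kinases PLK4, PLK3 and PLK1 were the most reduced by the mean, with PLK4 at -1.90 and -2.67 in A673 and -1.05 and -1.72 in SKNMC, whereas PLK2 was near the limit of activity. PPM1A and PPM1B, relatives of PPM1D, had its directions in both lines with smaller sizes, although PPM1B turned to -0.07 in A673 and -0.12 in SKNMC at 50 nM when scaled to ribosomal protein genes. PPM1A was at 0.41 and -0.46 in A673 and 0.54 and -0.77 in SKNMC, and PPM1B at 0.17 and -0.91 and at 0.21 and -0.78. BTG3 was at 0.00 and -0.34 in A673 (-0.24 and -0.73 when scaled to ribosomal protein genes, 0.25 and 0.03 when scaled to the 75th percentile) and at 0.41 and -0.83 in SKNMC, where BTG2 was at -1.85 and -1.97. SESN3 was the sole paralog called higher, at 1.12 at 50 nM in SKNMC, or 0.76 when scaled to ribosomal protein genes. Of all active genes, 0.471% were higher at 50 nM in SKNMC.

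**Figure D5:**
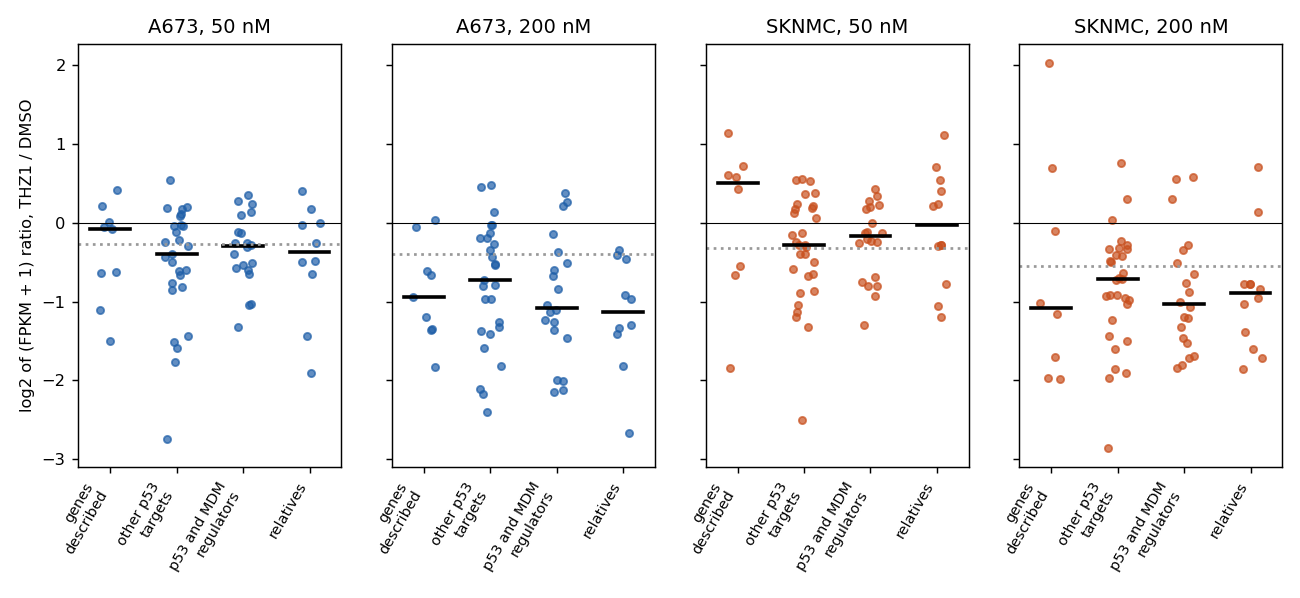
Log2 ratio of FPKM + 1 between THZ1 and DMSO (y axis) for the active genes of 4 lists (x axis) in each line and dose, with 1 point per gene, the median of each list as a bar and the median of all active genes as a dotted line. The 9 genes have medians of -0.08 and 0.51 at 50 nM, and -0.94 and -1.09 at 200 nM, in A673 and SKNMC.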

How the data were processed

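RNA-Seq was measured in 6 libraries, grouped by cell line and dose as the sample labels give them. TruSeq libraries had been read in pairs of 100 bp (HiSeq2000). STAR was the aligner, hg19 the genome and Ensembl 75 the gene model, and the authors deposited FPKM values. The paper names StringTie for quantification, whereas the submitters' processing notes name Cufflinks. Whether a column averages several cultures is not given in the sources used here, and each was treated as 1 library. The 4 deposited log2 fold change columns of the authors were not used. FPKM is relative to each library's total, so a loss shared evenly by all transcripts is not visible.

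From these values log2 ratios with a pseudocount of 1 FPKM, 2-fold calls among genes above 1 FPKM with DMSO, and counts per list were computed with Python 3.11.15, pandas 2.3.3 and numpy 2.4.6. The code for the ratio and the 2-fold call was tested on simulated data, with changes set on the same scale in well-expressed genes. Low genes, scalings and list counts were not covered. No test was run. Gene starts in the table count from 0, so 1 was added. The search for p53-type matches and 3′ UTR words used the GRCh37 genome and GENCODE 44. Read depth could not be recovered: the most frequent ratio between low values held 0.798% to 0.951% of them. The 9 genes and the other lists were chosen with earlier results of these data known. In each other list, the 3 lowest and 3 highest by the mean log2 fold change (counting genes active in A673 and in SKNMC), and any gene called higher, are named. The 8 alternatives were another pseudocount, 3 scalings, another fold threshold, a stricter level for active genes, no filter, and protein-coding genes alone.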

Additional observations from a re-analysis of the deposited data

Results flagged for a closer look

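MDM4 and PLK2 had changes of opposite sign in the cell lines at both doses. MDM4, the relative of MDM2 that blocks p53, had log2 fold changes of -0.0524 at the low and -0.0521 at the high dose in A673, and of 0.61 and 0.70 in SKNMC. The A673 values turned to 0.16 and 0.26 when scaled to the 75th percentile of active genes, so the contrast of sign depends on the scaling. Those of SKNMC became 0.28 and 0.16 when scaled to ribosomal protein genes, and 0.89 and 1.24 when scaled to the 75th percentile. PLK2, the polo-like kinase, had log2 fold changes of -0.63 and -0.94 in A673, and of 0.37 and 0.32 in SKNMC, where it was below 1 FPKM in all 3 libraries. With 1 library per condition, this contrast of the cell lines carries no test.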

How the results depend on the processing

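No paired analysis was possible because each condition has 1 library, and leaving a replicate out was not possible for the same reason. Of 63 single-gene values, 6 changed sign when scaled to the 75th percentile of active genes, 1 with a common sum, 7 with ribosomal protein genes and 0 with a pseudocount of 0.1 FPKM, and none of these had reached 2-fold. Scaled to the 75th percentile, 1 gene was lower at 50 nM in A673 (median 0.15), 2 were higher at 50 nM in SKNMC (median 0.78), and 3 were lower and 2 higher at 200 nM in SKNMC (median -0.61). Scaled to ribosomal protein genes, the medians were -0.31 at 50 nM in A673, 0.18 at 50 nM in SKNMC, where 0 were higher, and -1.46 at 200 nM in SKNMC. With the pseudocount of 0.1 FPKM the medians at 200 nM were -1.26 in A673 and -1.23 in SKNMC. At a threshold of 1.5-fold, A673 had 4 genes lower at the low and 7 at the high dose. In SKNMC 2 were lower and 3 higher at 50 nM, and 2 were higher at 200 nM. For none of the alternative settings here was the share of all active genes computed, so these counts have no background. With active genes set above 5 FPKM, 1 gene was lower at 50 nM in A673, and the median at 200 nM in A673 was -1.20. In SKNMC 0 were then higher at 50 nM and at 200 nM. BTG2 in A673 (3.92 FPKM with DMSO) and GADD45B in SKNMC (4.04 FPKM) lie below this level. Both thus left the counts, and their own log2 fold changes are unaltered by this filter. The causes of the other shifts were not tested. Unknown depth leaves genes below 1 FPKM, such as PLK2 in SKNMC, without a known counting error.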

Other observations

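The genes whose 4 log2 fold changes lay closest to those of each gene were sought among 7906 protein-coding genes above 5 FPKM in both DMSO libraries, by Euclidean distance. The closest to MDM2 was SENP2, a SUMO protease known to act on MDM2, at a distance of 0.08, with log2 fold changes of -1.17 and -1.36 in A673 and -0.54 and -1.06 in SKNMC. The closest to PPM1D was CCNT1, the cyclin of the elongation kinase P-TEFb, at 0.31, with 0.48 and -1.67 in A673 and 0.47 and -1.76 in SKNMC. GADD45B had no close companion in this pool, and its nearest were ARC at 0.85, CRIP1 at 1.21 and IER2 at 1.22. With DMSO, GADD45B was itself at 4.04 FPKM in SKNMC, below the level of the pool. Genes starting as low in SKNMC were therefore not candidates. ARC and IER2 are immediate early genes, and IER2 was at 0.68 and 1.02 in A673 and at 1.42 and 2.10 in SKNMC. The nearest of the 9 genes to one another were GADD45A and PLK2, at 0.60 with the pseudocount of 1 FPKM, which shrinks the changes of low genes such as PLK2. With 0.1 FPKM, PLK2 was at -1.26 and -2.27 in A673 and at 1.31 and 1.16 in SKNMC. GADD45A was then at -0.66 and -1.26 in A673 and at 0.75 and -0.10 in SKNMC, so their closeness depends on the pseudocount. With 7906 candidates over 4 values that share 2 DMSO libraries, some gene lies close to most patterns, so these names are a description.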
